A study of Mus musculus with 4 samples.

Results

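Integrin alpha chains that bind extracellular matrix were followed in cells sorted from mouse marrow with an osteoblast gate. The family was taken as the 10 genes Itga1, Itga2, Itga3, Itga5, Itga6, Itga7, Itga8, Itga9, Itga10 and Itga11, listed by name and not by a threshold on their values, although earlier results of these data were known. A gene counted as measured where at least 1 probe set of the array was annotated to it alone. This held for 9 of the 10 genes, through 19 probe sets, out of 18193 genes and 45037 probe sets in all. Itga11, a collagen receptor chain, was not analysed here.

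The cells came from NOD/SCID recipient adult mice (strain NOD.CB17-Prkdcscid/J in every sample), whose scid mutation blocks the making of mature B and T cells. All samples were gated as Lin- CD45- CD31- Sca1- CD51+, which is the osteoblast gate of the submitters, so all carry the alpha v integrin CD51 by selection. The groups were marrow cells of the trabecular bone area (2 arrays) and of the long bone area (2 arrays). The arrays are called biological replicates, but the mice behind them are not named, so p-values measure the spread between these samples and no more. The comparison asks how the sorted cells of the 2 places differ.

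Integrins are surface receptors made of 1 alpha and 1 beta chain, and the alpha chain largely sets which matrix protein is bound. The chains studied here all pair with the beta 1 chain, encoded by Itgb1, and Itga6 also pairs with beta 4. Collagen receptors (Itga1, Itga2, Itga10 and Itga11) carry an inserted I domain that grips the collagen triple helix, while the laminin receptors (Itga3, Itga6 and Itga7) lack it. Itga5 and Itga8 recognise the short RGD motif of fibronectin, nephronectin and related proteins, and Itga9 binds tenascin-C, osteopontin and VCAM1 without that motif. In bone these receptors anchor osteoblasts and chondrocytes to their matrix.

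The windows around the start sites of Itga10 and Itga5 are shown because these are the collagen receptor and the fibronectin receptor with the clearest separation between the areas in what follows. Each runs from 250 bases before to 50 bases after the annotated start, 5′ to 3′ on the strand of the gene, from RefSeq on GRCm38.p6. The Itga10 window is chr3:96645334-96645633 on the plus strand, and the Itga5 window is chr15:103366742-103367041 on the minus strand. Capitals mark matches, on either strand, to the 6 motifs searched, which were the GC box GGGCGG, the CCAAT box, the TATA box TATAAA, the AP-1 site TGANTCA, the RUNX core TGTGGT and the SOX core ACAANG.
Itga10: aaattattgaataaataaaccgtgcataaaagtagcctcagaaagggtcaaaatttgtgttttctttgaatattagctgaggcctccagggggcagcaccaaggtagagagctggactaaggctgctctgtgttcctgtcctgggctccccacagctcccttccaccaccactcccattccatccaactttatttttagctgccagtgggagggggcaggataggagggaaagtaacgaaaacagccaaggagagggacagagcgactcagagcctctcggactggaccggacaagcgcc
Itga5: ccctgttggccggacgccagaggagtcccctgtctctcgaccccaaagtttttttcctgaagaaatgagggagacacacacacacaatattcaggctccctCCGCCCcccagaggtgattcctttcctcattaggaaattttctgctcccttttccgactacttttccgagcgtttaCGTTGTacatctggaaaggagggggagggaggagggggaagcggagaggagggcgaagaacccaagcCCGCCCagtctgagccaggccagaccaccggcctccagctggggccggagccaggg

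The Itga5 window held 2 GC boxes and 1 SOX core, and the Itga10 window held no match to any of the 6. Over 32851 windows of the same length, 35.7% held a GC box, 37.4% a CCAAT box, 13.6% a TATA box, 7.81% an AP-1 site, 16.8% a RUNX core and 41.2% a SOX core. The GC content was 51.0% for Itga10 and 58.7% for Itga5, against a median of 52.7% over all windows. Of the 10 chains, 8 matched the table of windows (all but Itga6 and Itga7). The window at the gene start of Itga3 held 3 GC boxes and that of Itga2 held 1. The letters of a window say nothing of whether a factor was bound in these cells.

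Each deposited value is a log2 expression from which the probe set's own 4-array median has been taken away, so it tells how arrays differ and not how high a gene is. A positive value means above that median, and a difference of 1 is 2-fold. Values of a gene are means over its probe sets. Long bone array 2 stood apart from the rest. It held 2493 probe sets 2-fold or more away from that median, and the others held 383 to 848. The 5′ and 3′ probe sets of the Gapdh control track RNA integrity and the reach of the amplification. The centred 5′ value minus the centred 3′ value was -0.09 to 0.31 on the other arrays and -1.16 on this one. Since both values are centred, this compares the arrays and is no absolute measure of RNA integrity. The number of arrays limits the precision of every value.

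Most of the matrix-binding chains stood lower in the trabecular area, by modest amounts. The difference, trabecular minus long bone, was below 0 for 8 of 9 chains, while 45.4% of all genes were below 0. The median over the 9 was -0.30, against 0.03 over all genes. The differences ran from -0.67 for Itga10 to 0.36 for Itga6, so none of the 9 reached 2-fold, a size reached by 2.89% of all genes and 5.26% of all probe sets. Both trabecular values lay below both long bone values for 5 of 9 chains (Itga1, Itga3, Itga5, Itga9 and Itga10), an order found in 21.4% of all genes. The reverse order, which 29.9% of all genes showed, occurred in 0 of 9. Without long bone array 2, 7 of 9 chains were below 0, counting Itga6 at -0.00094, and the median over all genes was 0.05. In that setting 6 chains were fully separated in the lower direction, beside 29.5% of all genes. Without trabecular array 2, 6 of 9 chains were below 0.

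None of the chains passed the test across all genes. With limma and Benjamini-Hochberg adjustment 0 of 18193 genes were called at 0.05 (percent called 0; 1 gene with ordinary t statistics), and the adjusted p of the 9 chains lay between 0.286 and 0.801. At an unadjusted p under 0.05 there were 3 of 9 chains, Itga5, Itga9 and Itga10, all lower in the trabecular area, beside 15.5% of all genes in either direction and 4.62% lower. The count of such chains was 1 of 9 (Itga10) with the replicate block and 1 of 9 with medians of probe sets. It was 0 of the 3 chains that remained with bright probe sets only. The share of all genes in those fits is not given here, so these counts have no background beside them. A fit with 1 array left out has a single array in 1 area, so chains are not counted by p there. An exact permutation test of 2 arrays against 2 cannot go below p = 0.333 (two-sided). In sorted cells measured in bulk, fewer cells of a type and less RNA per cell cannot be told apart.

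**Figure D1:**
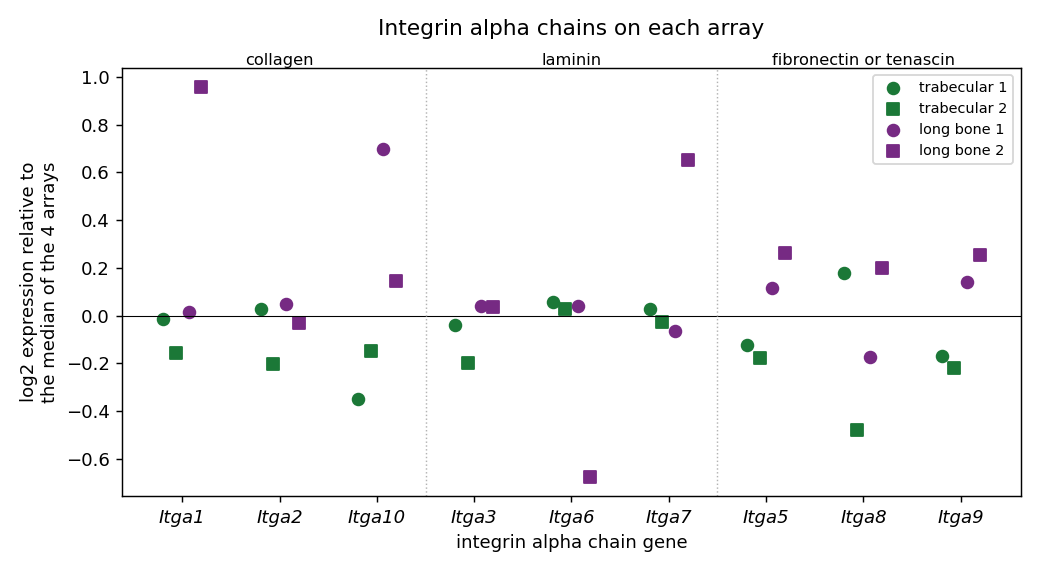
Log2 expression minus the 4-array median (vertical axis) of the 9 measured integrin alpha chains (horizontal axis), 1 point per array, with circles for replicate 1 and squares for replicate 2. Itga5 and Itga9 separate the trabecular (green) from the long bone arrays (purple) with tight pairs, whereas Itga1, Itga6 and Itga7 have 1 distant point each, at 0.96, -0.67 and 0.65 on long bone array 2.

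Among the collagen receptors Itga10 differed most. Itga10 is the collagen II receptor chain of cartilage cells, and mice without it have a mild growth plate defect. Its values were -0.35 on trabecular array 1 and -0.15 on trabecular array 2, against 0.70 and 0.15 on the long bone arrays. Both trabecular values were thus low and long bone array 1 was the high one. The means were -0.25 ± 0.14 and 0.42 ± 0.39 (SD, n = 2 each), which makes Itga10 1.59-fold lower in the trabecular area (log2 difference -0.67, SE 0.23, 95% interval -1.28 to -0.07). In limma the p was 0.0364 before and 0.301 after adjustment. The log2 difference was -0.40 with long bone array 1 left out and -0.95 with its partner left out.

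Itga1 encodes the receptor chain that favours basement membrane collagen IV and is known from smooth muscle, fibroblasts and some lymphocytes. It read -0.02 and -0.16 in the trabecular area and 0.02 and 0.96 in the long bone area. The areas did not overlap, but the gap between them was 0.03, and the difference of -0.57 (SE 0.34, 95% interval -1.47 to 0.33, limma adjusted p = 0.456) came from long bone array 2. Without that array the difference was -0.10. Without long bone array 1 it was -1.04 with an adjusted p of 0.0392 in limma, in a fit whose only estimate of spread is the trabecular pair, and which called 1603 genes.

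Itga2, the receptor chain for fibrillar collagen on platelets and the DX5 antigen of mouse natural killer cells, was nearly level. Its values of 0.03 and -0.20 in the trabecular area overlapped with 0.05 and -0.03 in the long bone area. The log2 difference was -0.10 (95% interval -0.47 to 0.28). Its sign turned, to 0.02, without trabecular array 2. The 3 measured collagen receptors together had a median difference of -0.57, which was -0.14 without long bone array 2 and -0.40 if the other long bone array was omitted.

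The laminin receptors went in both directions. Itga6 was the only chain of the 9 that stood higher in the trabecular area. It encodes CD49f, a laminin receptor chain of epithelia, platelets and stem cells of several tissues. It read 0.06 and 0.03 on the trabecular arrays, 0.04 on the first long bone array and -0.67 on the second. The last of these arrays thus stood low and the others lay together. The log2 difference of 0.36 (SE 0.27, 95% interval -0.35 to 1.06, limma adjusted p = 0.541) became -0.00094 without long bone array 2.

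Itga7, the laminin receptor chain of muscle, showed the opposite picture with the same array apart. It read 0.03 and -0.03 in the trabecular area, -0.06 on the first long bone array and 0.65 on the second. The log2 difference of -0.30 (95% interval -1.0 to 0.41) turned to 0.06 without long bone array 2. Omitting long bone array 1 instead gave 0.72 for Itga6 and -0.65 for Itga7, with long bone array 2 as the only array of its area.

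Itga3 encodes a receptor chain for the laminins of epithelial basement membranes. Its values were -0.04 and -0.20 in the trabecular area and 0.04 on each long bone array. The areas did not overlap, by a gap of 0.07, and the log2 difference was -0.16 (SE 0.13, 95% interval -0.50 to 0.18). It was -0.08 without trabecular array 2. The median difference of the 3 laminin receptors was -0.16, and it was within 0.001 of 0 without long bone array 2.

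**Figure D2:**
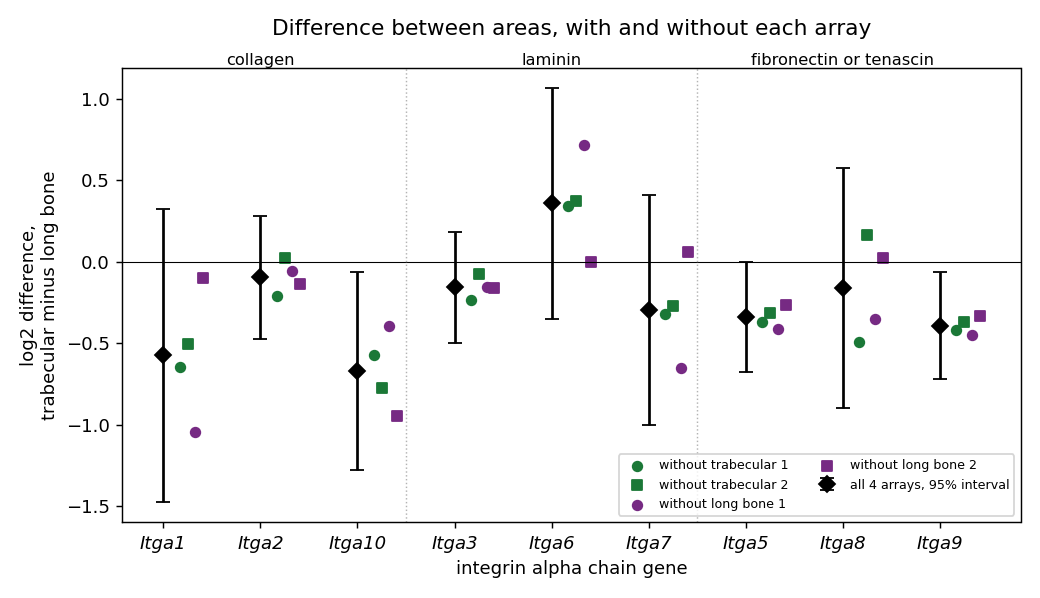
Log2 difference, trabecular minus long bone (vertical axis), of each measured chain (horizontal axis). Diamonds and bars give the fit to all 4 arrays with its 95% interval, and coloured points give the value with the named array left out. Itga5, Itga9 and Itga10 stay below 0 whichever array is left out, as do Itga1 and Itga3, while Itga2, Itga6, Itga7 and Itga8 reach or cross 0.

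Itga5 and Itga9, in the fibronectin and tenascin class, separated the areas with replicates that lay close together in the means over their probe sets. Itga5, which pairs with beta 1 into the classic fibronectin receptor, read -0.12 and -0.18 in the trabecular area and 0.12 and 0.26 in the long bone area. The pairs lay on opposite sides of 0. The means were -0.15 ± 0.04 and 0.19 ± 0.10 (SD, n = 2 each), a 1.27-fold lower value in the trabecular area (log2 difference -0.34, SE 0.13, 95% interval -0.68 to -0.001). The limma p was 0.0495 before and 0.323 after adjustment, and the difference lay between -0.41 and -0.27 with each array left out.

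Itga9, a tenascin-C receptor chain, gave -0.17 and -0.22 in the trabecular area and 0.14 and 0.26 in the long bone area. Its gap between the areas, 0.31, was the widest of the 9 chains. The means were -0.19 ± 0.03 and 0.20 ± 0.08 (SD, n = 2 each), 1.31-fold lower in the trabecular area (log2 difference -0.39, SE 0.12, 95% interval -0.72 to -0.06). The limma p was 0.0287 before and 0.286 after adjustment, the lowest of the family. With each array left out the difference ran from -0.45 to -0.33.

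Itga8, a nephronectin receptor chain of smooth muscle and mesenchyme, scattered within the areas. It read 0.18 and -0.48 on the trabecular arrays and -0.17 and 0.20 on the long bone arrays. Each area held 1 value above and 1 below 0. The log2 difference was -0.16 (SE 0.28, 95% interval -0.90 to 0.57), and it became 0.17 without trabecular array 2 and 0.02 without long bone array 2. The 3 chains of the class had a median difference of -0.34, between -0.42 and -0.27 with each array left out.

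Set side by side, the median differences were -0.57 for collagen, -0.34 for fibronectin or tenascin and -0.16 for laminin receptors. With 3 measured chains in each class these medians describe the chains and were not tested against each other. The collagen median is the value of Itga1, which rested on long bone array 2, and without that array it was closer to 0 (-0.14) than that of the fibronectin or tenascin receptors (-0.27).

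Probe sets of a gene read different stretches of its transcripts, and they did not all move alike. Of the 19 probe sets, 15 had a difference below 0, and the share over all probe sets is not given here. The 19 come from 9 genes, and probe sets of the same gene are not independent readings. The areas were fully separated on 9 probe sets with the trabecular values lower and on 2 with them higher, beside 26.2% and 25.9% of all probe sets. No probe set was called in limma (0 of 45037, percent called 0), and 4 of the 19 had an unadjusted p under 0.05, beside 16.3% of all probe sets. These 4 were 2 probe sets of Itga5 (-0.68 and -0.51) and 1 each of Itga9 (-0.71) and Itga10 (-0.67).

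Itga5 had 4 probe sets, of which 3 kept the trabecular values below the long bone values, at -0.68, -0.51 and -0.23. The other one, 1423267_s_at, was at 0.06 and overlapped. The name ending _s_at marks a probe set that may read more than 1 transcript. It is shared by 1450029_s_at of Itga9 (-0.43) and 1421997_s_at of Itga3 (-0.28). Itga9 had probe sets at -0.71, -0.43 and -0.04, the last with overlap. The values of 1460285_at, its most separated probe set, were -0.47 and -0.28 against 0.39 and 0.28.

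The 3 probe sets of Itga3 disagreed. Those at -0.36 and -0.28 put both trabecular values below the long bone values, and 1460305_at put them above, at 0.17. The mean for Itga3 therefore hides opposite orders. For Itga1 the difference was -0.98 on 1455251_at, which reached 1.60 on long bone array 2, and -0.16 on 1439713_at. Both probe sets of Itga6 were above 0, at 0.41 and 0.30, and both of Itga8 below, at -0.27 and -0.05. Itga2, Itga7 and Itga10 had 1 probe set each, so no second reading exists for them here.

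The step of the stored numbers gives a coarse idea of the level before centring, since 32-bit numbers are spaced more widely at higher values. Of the 19 probe sets, 3 were read at a log2 level of 8 or above, 15 at 4 to 8, and 1 could not be read, while 30.2% of all 45101 probe sets were read at 8 or above. The 3 brighter probe sets belonged to Itga5 (1423268_at), Itga6 (1422445_at) and Itga9 (1450029_s_at). Their differences were -0.23, 0.41 and -0.43. Probe affinity enters these bands, so they do not rank the genes. The authors' processing can compress differences of dim genes, which was not tested here.

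**Figure D3:**
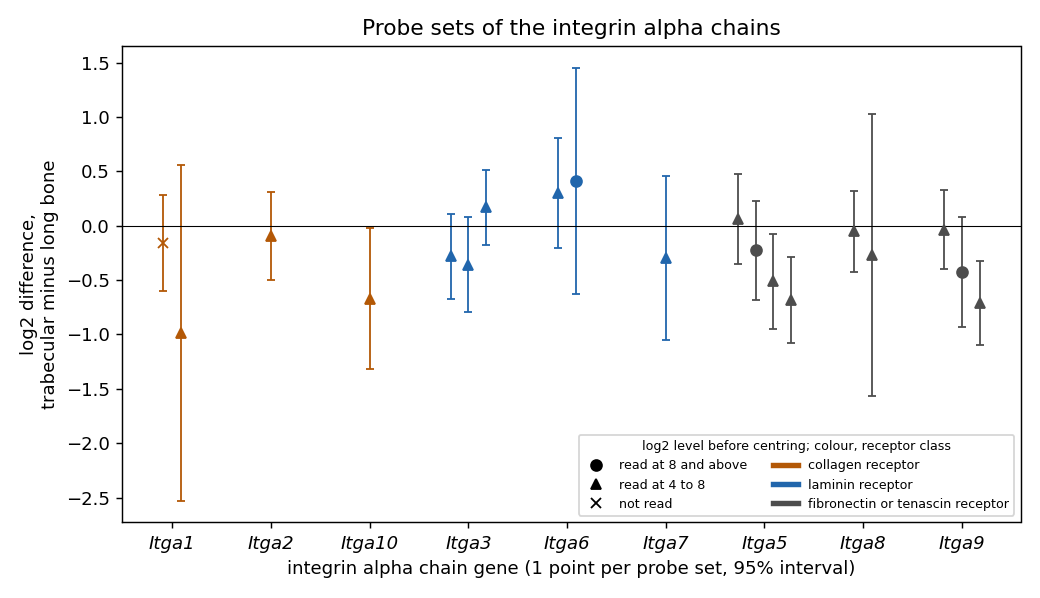
Log2 difference, trabecular minus long bone (vertical axis), of each of the 19 probe sets, grouped by gene (horizontal axis), with 95% intervals from the fit across all probe sets. Symbols give the log2 level band read from the stored numbers and colours the receptor class. The probe sets of Itga3 lie on both sides of 0, at -0.36, -0.28 and 0.17, and those of Itga9 spread from -0.71 to -0.04.

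The collagen ligands differed by more than the receptor chains, in contrast to the laminin ligands. All 12 measured collagen ligand genes had negative differences, 11 of them without overlap and 8 of at least 2-fold, with a median of -1.70. Over all genes 21.4% stood lower with no overlap, and 2.89% were at least 2-fold apart in either direction. Col11a1 and Col2a1, fibrillar collagens of cartilage, differed by -4.07 and -3.77. Col2a1 read -2.24 and -1.61 against 2.08 and 1.61, while its receptor chain Itga10 differed by -0.67. None of the 12 was called over all genes.

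Among fibronectin and tenascin type ligands 10 of 12 were lower, 7 with no overlap, beside 21.4% of all genes. The median of the list was -0.48, which was -0.08 without long bone array 2 and -0.88 if the other long bone array was omitted. Tnc, the tenascin bound by Itga9, differed by -2.43 (95% interval -3.57 to -1.29) and Fn1, the fibronectin bound by Itga5, by -1.88 (95% interval -2.87 to -0.88). These sizes stand beside -0.39 for Itga9 and -0.34 for Itga5. The gene Spp1 (osteopontin) was not analysed here.

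Laminin ligands had a small median difference, as did the laminin receptors, whose chains went in both directions. Of 11 genes 8 were lower, 3 with no overlap (21.4% of all genes), and the median was -0.13. Lamb2 and Lama2, laminin chains of vessel and muscle basement membranes, differed by -0.71 and -0.39. Lamb2 was at 1.06 on long bone array 2 and at 0.06 on its partner. The largest difference of the list, -0.83 for Lamb1, came with overlap, and Lamb1 read 1.42 on long bone array 2. No member of the ligand lists was called in limma over all genes.

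**Figure D4:**
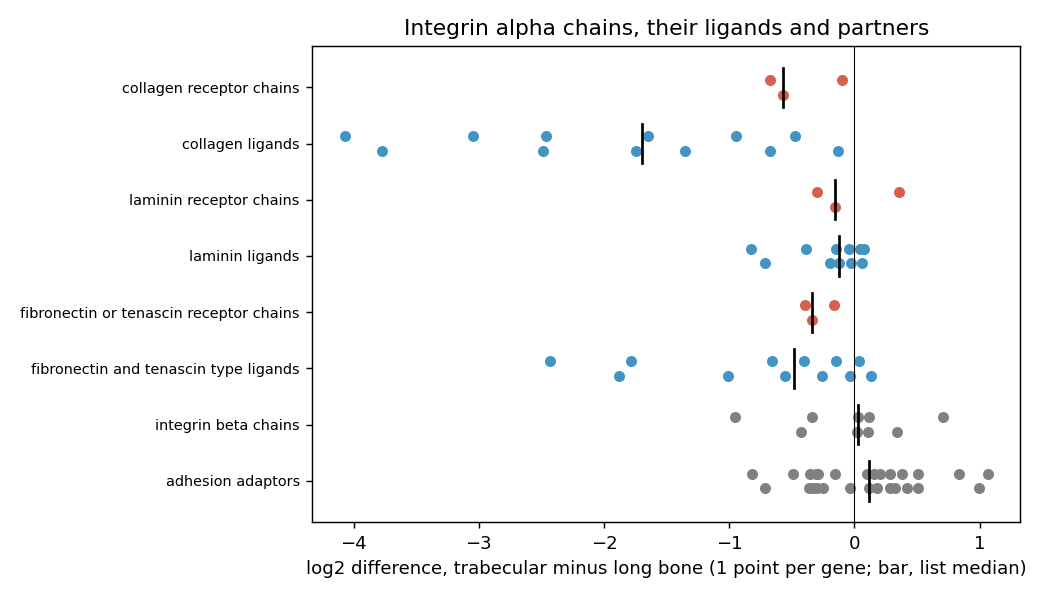
Log2 difference, trabecular minus long bone (horizontal axis), 1 point per gene, for the 3 receptor classes, their ligand lists, the beta chains and the adhesion adaptors (vertical axis). Black bars give list medians. The collagen ligands reach -4.07 with a median of -1.70, whereas the receptor chains lie between -0.67 and 0.36.

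The beta chains did not follow the alpha chains as a group. Itgb1, the common partner, read 0.05 and 0.01 in the trabecular area against 0.02 and -0.16, an overlapping difference of 0.11. Of 8 beta chains 2 were lower and 6 higher (2 and 2 with no overlap, beside 21.4% and 29.9% of all genes). The median was 0.07. Itgbl1, a secreted beta-like protein kept on the same list, differed by -0.42, and with it the median was 0.03. Itgb5, a partner of the alpha v chain, differed by -0.96 and Itgb4, the partner of Itga6 in epithelia, by -0.34, both with no overlap. Itgb3 and Itgb8 stood higher with no overlap, by 0.34 and 0.12.

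Of 7 other alpha chains 5 were higher in the trabecular area, 2 of them with no overlap, beside 29.9% of all genes. Itgam and Itgal, the leukocyte chains CD11b and CD11a, differed by 1.68 and 0.66 with no overlap, and both were lowest on long bone array 2, at -1.87 and -0.91. The beta chain of these leukocyte receptors, Itgb2, was also lowest there, at -1.25, the array on which Itga6 read -0.67. The platelet chain Itga2b differed by -0.37 and Itgav, the sorted antigen CD51, by -0.13. These 2 of the 7 were lower with no overlap, beside 21.4% of all genes. Of these genes none was called over all genes.

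Adhesion adaptors link integrin tails to actin. Of 27 genes 12 were lower and 15 higher in the trabecular area (10 and 9 with no overlap, beside 21.4% and 29.9% of all genes). The median was 0.12. Fermt2, the kindlin that activates beta 1 integrins, differed by -0.82 and Kank2, a talin-binding adaptor, by -0.72. Itgb1bp1, which binds the beta 1 tail and holds the receptor inactive, differed by 1.07, and Zyx, a focal adhesion LIM protein, by 1.00. Again 0 were called over all genes.

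Marker genes of several cell types, among them the osteoblasts of the submitters' gate, were set beside the chains. Marker values carry no level, so presence or absence cannot be read. All 5 chondrocyte markers had trabecular values below every long bone value, led by Comp (-5.18) and Col2a1, in the same direction as Itga10. The same order held for 4 of 4 osteoblast markers, led by Ibsp (-2.00) and Col1a1 (-1.75), beside 21.4% of all genes. The part of these cells in the Itga10, Itga5 and Itga9 values was not tested. On long bone array 2, where Itga1 and Itga7 were high, the median of the 5 reticular stroma markers was 1.89 (0.19 and -1.10 on the trabecular arrays and -0.19 on long bone array 1), and that of the 5 pericyte and smooth muscle markers was 0.52 (-0.13, -0.23 and 0.11). In the latter list, Cspg4 and Rgs5 differed by -0.84 and -0.81 with no overlap. The part of these cells in the Itga1 and Itga7 values was not tested.

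Of the 5 megakaryocyte markers, 3 were lower, with a median of -0.37. Pf4 and Ppbp, platelet chemokines, differed by -2.14 and -1.20 with overlap and read 4.37 and 2.25 on long bone array 2, where Itga6 read -0.67 and Itga2 -0.03. Of the same list Itga2b, lower, and Gp9 (0.32), higher, did not overlap, beside 21.4% and 29.9% of all genes. The part of these cells in the values of the chains was not tested.

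The remaining marker lists had medians between -0.13 for erythroid cells and 0.20 for T and NK cells. The members with the largest differences and no overlap were Kdr (-0.31) and Emcn (0.27) for endothelium, and Ncr1 (-0.15), Cd3g (0.28) and Cd3e (0.22) for T and NK cells. For myeloid cells they were Ltf (0.40), C1qa (-0.59), Marco (-0.26) and Cd68 (0.78). Of 4 erythroid markers 3 were lower, with Alas2 at -0.65 and overlapping, and Hba-a1 (0.18) was the only one with no overlap. Of 5 skeletal muscle markers, from the tissue where Itga7 is best known, 3 were higher and the median was 0.04, while the 2 with no overlap, Ckm (-0.28) and Myod1 (-0.15), were lower. Over all genes 21.4% stood lower and 29.9% higher with no overlap. None of these marker genes was called.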

How the data were processed

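Per the labels' protocols and the design text of the series, RNA of 4 sorted samples (2 per area) was amplified, biotin-labelled and hybridised to 1-colour Affymetrix arrays. A human array is named there, whereas the probe sets are annotated as those of a mouse array. The values the authors deposited were made with RMA, per the submitters' processing notes, and were read as log2, the scale RMA gives, although no source used here states the base. The median over the 4 arrays is 0 for all 45101 probe sets, so they were also centred. How the centring was done is not given in the sources used here.

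Leaving out 64 controls left 45037 probe sets. Of these 34945 had 1 gene, 932 several and 9160 none, which gave 18193 genes. By gene ID 34741 matched RefSeq (GRCm38.p6), with 0 symbols changed. A gene was the mean of its probe sets. The fit used limma 3.58.1 (R 4.3.3, lmFit, eBayes) with no replicate block and Benjamini-Hochberg adjustment over the whole table. It had 2 residual degrees of freedom, and prior ones of 2.50 for genes and 2.17 for probe sets. Intervals are 95% intervals of that fit. The fit was also run on simulated independent normal values with no array set apart. That run therefore does not cover an array like long bone array 2, and its outcome is not given here.

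Bands of level came from the step of the stored numbers, read where at least 3 values were large enough. The members and lists were chosen with earlier results of these data known. Named genes are all members, Itgb1, Itgav and up to 2 genes per list and direction with no overlap. Genes most like a chain were to be named for chains at least 2-fold apart, and there were 0 such chains. Itgb2, Itgbl1, Lamb1, Pf4, Ppbp and Alas2 were named after their values were seen. Alternatives were other normalization, a replicate block, each array left out, and other choices of probe sets and statistics.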

Additional observations from a re-analysis of the deposited data

How the results depend on the processing

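The count of called genes stayed at 0 with quantile normalization, array medians at 0, medians of probe sets, bright probe sets, the replicate block and without either trabecular array. It was 1 with ordinary t statistics and 1 with all suffixed probe sets (_s_at, _x_at, _a_at and the like) left out, for genes and for probe sets alike. With an array left out it ran from 0 to 1603 genes, the latter without long bone array 1, and was 0 for probe sets. The replicate numbers correlated at -0.115 over genes in their deviations. With the replicate block 0 genes were called, and 1 chain in place of 3 had an unadjusted limma p under 0.05. The share of all genes under 0.05 in that fit is not given here, so this count has no background beside it. A crossed pairing, chosen after seeing the data, also called 0 genes and 0 probe sets.

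With each array left out the median was -0.57 to -0.14 for collagen, -0.24 to -0.00094 for laminin and -0.42 to -0.27 for fibronectin or tenascin receptors, and 5 to 7 of 9 chains were lower with no overlap, beside 28.6% to 40.4% of all genes (35.8% without trabecular array 1 and 40.4% without long bone array 1, where it was 7). Quantile normalization gave -0.47 for collagen and -0.21 for laminin receptors. The laminin median was -0.28 with medians of probe sets, 0.13 without suffixed probe sets (2 chains, as the only Itga7 probe set ends in _a_at, which marks several transcripts of 1 gene). Leaving out only _s_at and _x_at probe sets, an alternative chosen after seeing the data, kept Itga7 and gave -0.094. The laminin median was 0.41 over bright probe sets, where Itga6 alone remained of the class. Bright probe sets left 3 chains, 2 of them lower with no overlap (14.1% of all genes there), and no collagen receptor. With an array left out signs turned for Itga2 (-0.21 to 0.020), Itga6 (-0.00094 to 0.72), Itga7 (-0.65 to 0.063) and Itga8 (-0.49 to 0.17), and for the medians of the beta chains (-0.035 to 0.13) and adaptors (-0.063 to 0.38). The adaptor median was -0.034 without suffixed probe sets, and the laminin ligand median 0.015 over bright probe sets. The cause of these turns was not tested.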
